A study of Mus musculus with 4 samples.

Results

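Keratins, the intermediate filament proteins of epithelial cells, were examined in cultured cells from ErbB2-driven mouse mammary tumours. The members were the genes whose platform symbol is Krt followed by a number and at most 1 letter, which leaves out keratin-associated proteins, and 53 such genes were measured among 22180 named genes. Each gene was read from the probe set that carries its symbol alone. Krt18 was the only keratin with 2 such probe sets, and the probe set with the higher mean was used. Krt5 had no probe set of its own, so the basal class held 3 measured members. The groups were cells given 2 µM GSK126 for 96 h (2 arrays) and cells given the vehicle DMSO for 96 h (2 arrays). All 4 samples came from lines of MMTV-NIC tumours (female, strain FVB), a model whose MMTV promoter drives ErbB2 joined to Cre through an IRES in mammary epithelium. All were grown in serum with EGF, insulin, hydrocortisone and bovine pituitary extract, without the stroma of the gland. The labels do not say how many lines were used or whether replicates were separate cultures, so p-values reflect only array-to-array spread that may be technical. GSK126 inhibits EZH2, the enzyme that trimethylates lysine 27 of histone H3. The comparison describes whether keratin transcripts that mark luminal, basal or skin identity differed after the drug.

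Keratin filaments are built from obligate pairs of an acidic type I and a basic type II protein. In the mammary gland Krt8 and Krt18, with Krt7 and Krt19, mark the luminal cells that line the ducts, and Krt5 with Krt14, together with Krt15 and Krt17, mark the outer basal layer. The remaining family members belong mainly to stratified epidermis, mucosae, the hair follicle sheaths and the hair shaft. In mice, type I keratins lie in a cluster on chromosome 11 and type II keratins in a cluster on chromosome 15, where Krt18 sits next to Krt8. In the RefSeq table (GRCm38.p6) 27 of the measured genes were on chromosome 11, all of type I, and 26 on chromosome 15, of which 1, Krt18, was of type I.

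Upstream sequences show how the family members differ at their promoters. The 250 bases before the annotated start were available for 35 of the 53 genes, as 36 windows. Below, 5′ to 3′ on the gene's strand, capitals mark every CG dinucleotide and every TATAAA. The first 3 are luminal genes whose values did not separate the groups, the fourth, Krt14, is a basal gene with a lower mean after GSK126, and the last, Krt71, a hair follicle gene with a higher mean, each at an unadjusted p under 0.05. They are RefSeq sequences of GRCm38.p6: Krt7 (chr15:101412153-101412402, plus strand), Krt8 (chr15:102004343-102004592, minus strand), Krt18 (chr15:102027966-102028215, plus strand), Krt14 (chr11:100206031-100206280, minus strand) and Krt71 (chr15:101743098-101743347, minus strand).
Krt7: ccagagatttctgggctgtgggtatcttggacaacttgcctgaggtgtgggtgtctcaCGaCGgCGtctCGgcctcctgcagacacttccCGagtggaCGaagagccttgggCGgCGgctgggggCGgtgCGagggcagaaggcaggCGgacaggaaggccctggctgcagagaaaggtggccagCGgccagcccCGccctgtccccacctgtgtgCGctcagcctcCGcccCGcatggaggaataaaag
Krt8: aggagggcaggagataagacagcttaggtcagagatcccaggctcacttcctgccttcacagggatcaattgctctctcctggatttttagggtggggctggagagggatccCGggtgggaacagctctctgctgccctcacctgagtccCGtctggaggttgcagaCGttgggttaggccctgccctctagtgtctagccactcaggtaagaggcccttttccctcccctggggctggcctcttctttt
Krt18: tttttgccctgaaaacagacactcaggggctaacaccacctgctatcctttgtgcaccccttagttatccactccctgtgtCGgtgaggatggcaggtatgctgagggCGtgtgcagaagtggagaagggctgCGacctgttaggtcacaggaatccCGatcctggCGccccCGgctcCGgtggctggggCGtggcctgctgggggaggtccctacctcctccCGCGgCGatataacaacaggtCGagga
Krt14: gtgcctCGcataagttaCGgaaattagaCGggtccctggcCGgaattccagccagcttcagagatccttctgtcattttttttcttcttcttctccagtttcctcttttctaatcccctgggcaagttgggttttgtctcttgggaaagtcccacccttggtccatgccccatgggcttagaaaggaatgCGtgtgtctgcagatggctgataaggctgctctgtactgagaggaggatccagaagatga
Krt71: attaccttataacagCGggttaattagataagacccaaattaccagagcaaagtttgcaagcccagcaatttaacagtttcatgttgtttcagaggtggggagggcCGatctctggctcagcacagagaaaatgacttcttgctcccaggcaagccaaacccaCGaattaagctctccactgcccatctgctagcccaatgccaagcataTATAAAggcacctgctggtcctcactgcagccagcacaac
Krt7 held 16 CG dinucleotides and Krt18 held 12, which were the only keratin windows with at least 10. Krt8, the partner of Krt18, held 3, Krt14 held 5 and Krt71 held 3. At least 10 were found in 5.56% of the keratin windows and in 37.8% of the 32851 windows of all genes. The letters TATAAA, searched on both strands, occurred in 17 of the 36 keratin windows (47.2%) and in 12.4% of all windows. Within the last 40 bases on the gene's strand they occurred in 14 keratin windows (38.9%), against 2.31% of all. Of the inner root sheath and companion layer windows 6 of 8 had TATAAA there, as in Krt71 at position -40 from the start, of the hair shaft windows 4 of 9, and of the 3 luminal windows 0. A match is a description of these letters and not a tested site.

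No keratin passed the test for a change with GSK126. Values are log2 expression values, and differences are GSK126 minus DMSO from limma with Benjamini-Hochberg adjustment over all genes, at a threshold of 0.05. Of the 53 keratins 0 passed, against 0.433% of all genes (96 of 22180, with 0.261% higher and 0.171% lower), and the smallest adjusted p was that of Krt80 (0.248). At an unadjusted p under 0.05 there were 6 keratins (11.3%), 3 higher and 3 lower with GSK126. Over all genes the same share was 10.6%, with 4.64% higher and 5.93% lower, so the keratin share was near the background. The GSK126 values lay wholly above the DMSO values in 11 keratins and wholly below in 6, together 32.1%, against 40.1% of all genes (18.2% above, 21.8% below). For 52 of the 53 genes the 95% interval of the difference lay within a 2-fold change in either direction, and for 29 within a 1.5-fold change. Krt6a, with the largest standard error (0.30), was the exception to the 2-fold limit. Over all 22180 genes 21553 lay within 2-fold and 15709 within 1.5-fold, so narrow intervals were not particular to keratins. In bulk RNA, fewer cells of a type and less RNA per cell cannot be told apart.

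**Figure D1:**
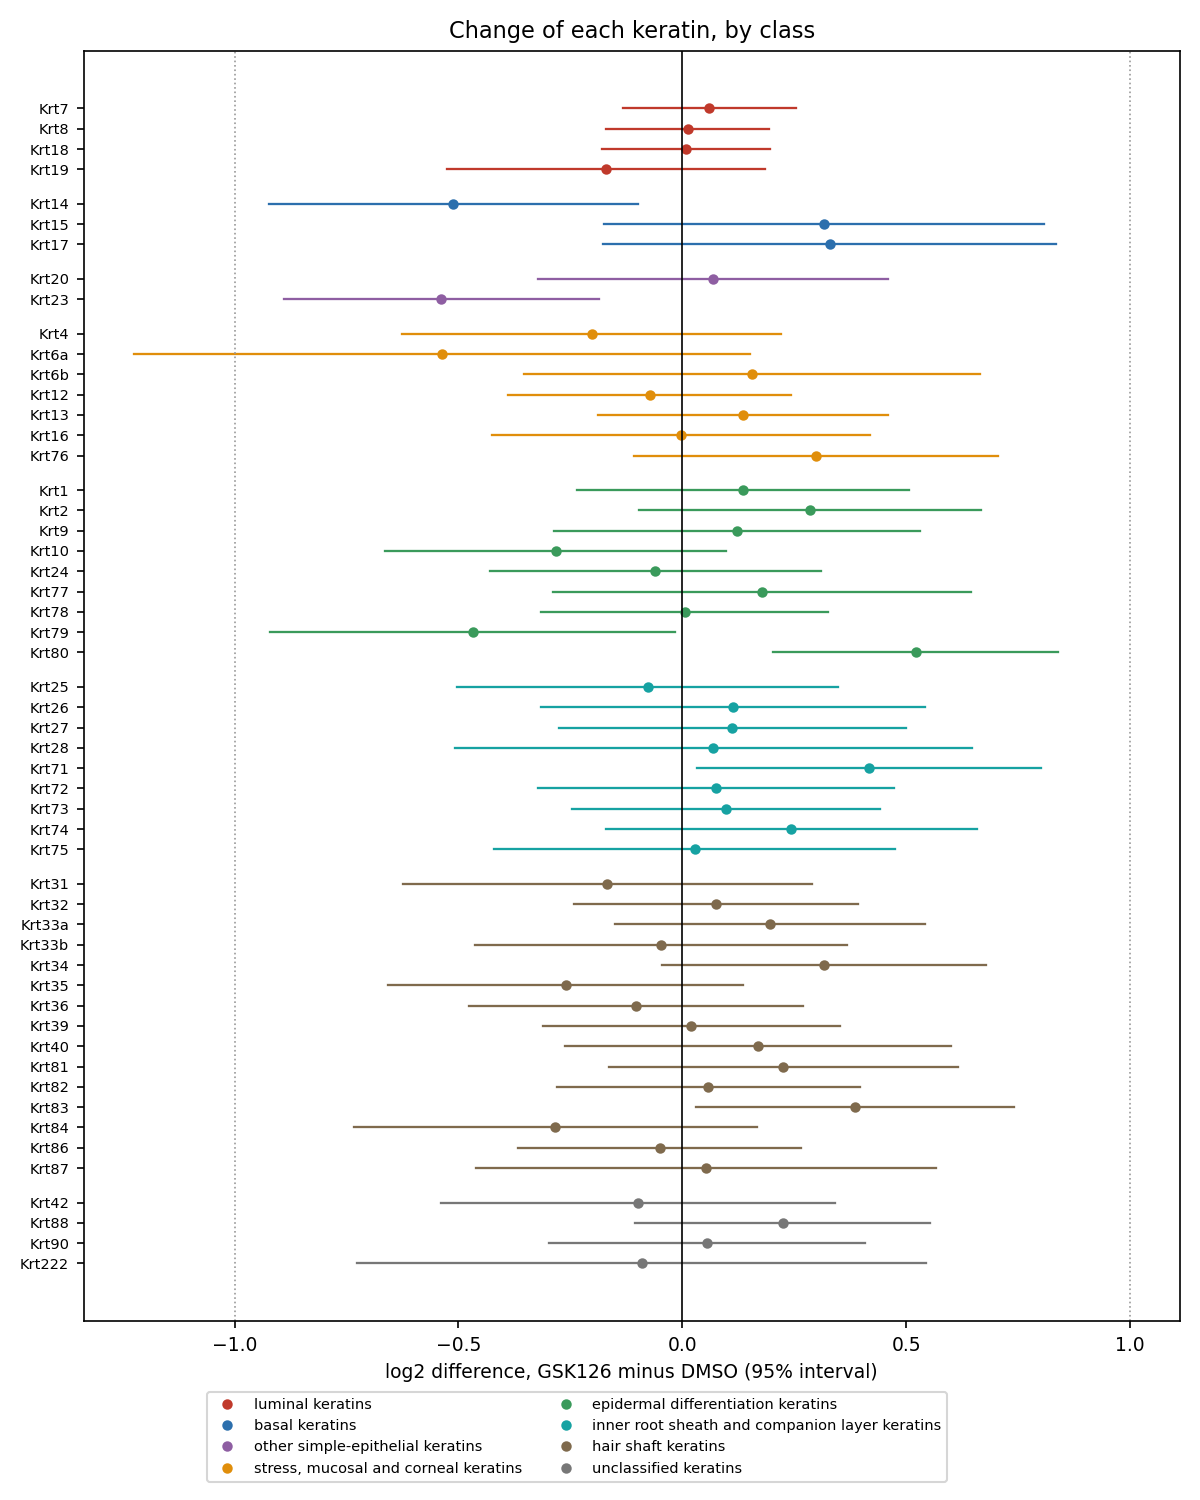
Difference of each of the 53 keratins, GSK126 minus DMSO on the log2 scale (points, x axis), with its 95% interval (lines), by class; dotted lines mark a 2-fold change. The 3 bright luminal keratins have the narrowest intervals around 0, and Krt6a alone reaches past a dotted line.

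The luminal filament genes were nearly the same on all 4 arrays. Krt8, the type II partner of Krt18 in simple epithelia, was at 10.54 and 10.59 with GSK126 and at 10.55 and 10.56 in DMSO. Krt18 was at 11.63 and 11.71 with GSK126, against 11.65 and 11.67 in DMSO. Krt7, a type II keratin of ducts and glands, was at 10.89 and 10.88 with GSK126 and at 10.77 and 10.89 in DMSO. In all 3 genes the groups overlapped. The difference was 0.013 for Krt8 (95% interval -0.17 to 0.19, adjusted p = 0.981 in limma), 0.0083 for Krt18 (-0.18 to 0.20, adjusted p = 0.990) and 0.06 for Krt7 (-0.13 to 0.25, adjusted p = 0.867). After median centring of the arrays, which shifted every gene's difference by -0.054, those of Krt8 (-0.04) and Krt18 (-0.05) had the other sign. The second Krt18 probe set averaged 7.17 with GSK126, against 7.33 in DMSO, a difference of -0.16 (SE 0.19, n = 2 arrays each).

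Krt19, a small type I keratin of simple epithelia, was the only dim luminal member. It was at 4.63 and 4.62 with GSK126 and at 4.70 and 4.89 in DMSO, so both GSK126 values lay below both DMSO values. The difference was -0.17 (SE 0.15, 95% interval -0.53 to 0.19, adjusted p = 0.759). Its mean stood below 4.77, the 40th percentile of mean level over all genes, called dim here, and near that level the size of a difference is uncertain. The median difference of the class was 0.01, and it changed sign with the array left out (-0.02 to 0.04).

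The basal keratins differed in sign and varied within groups, and none passed the test. Krt14, the type I partner of Krt5 in basal cells, was at 5.58 and 5.30 with GSK126 and at 5.74 and 6.16 in DMSO. Its GSK126 values lay below both DMSO values, by 0.51 on average (SE 0.18, 95% interval -0.92 to -0.10, unadjusted p = 0.0216, adjusted p = 0.384). Krt15, a keratin of basal cells and of the hair follicle bulge, was at 4.46 and 3.94 with GSK126, against 3.80 and 3.97 in DMSO. Krt17, found in appendages and induced in injured epithelium, was at 4.78 and 4.47 with GSK126, against 4.03 and 4.56 in DMSO. For both of these genes GSK126 replicate 1 was highest and the groups overlapped. The differences were 0.32 for Krt15 (SE 0.21, adjusted p = 0.651) and 0.33 for Krt17 (SE 0.22, adjusted p = 0.649), and both genes were dim. Single arrays moved all 3 basal genes: leaving out an array gave 0.058 to 0.577 for Krt15, 0.065 to 0.593 for Krt17 and -0.72 to -0.30 for Krt14. The lowest value came without GSK126 replicate 1 for Krt15 and without DMSO replicate 1 for Krt17, and the Krt14 value nearest 0 came without DMSO replicate 2. A probe set annotated to both Krt5 and Krt6a, which cannot be assigned to either gene, read 5.00 and 5.24 with GSK126 and 5.07 and 5.10 in DMSO.

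**Figure D2:**
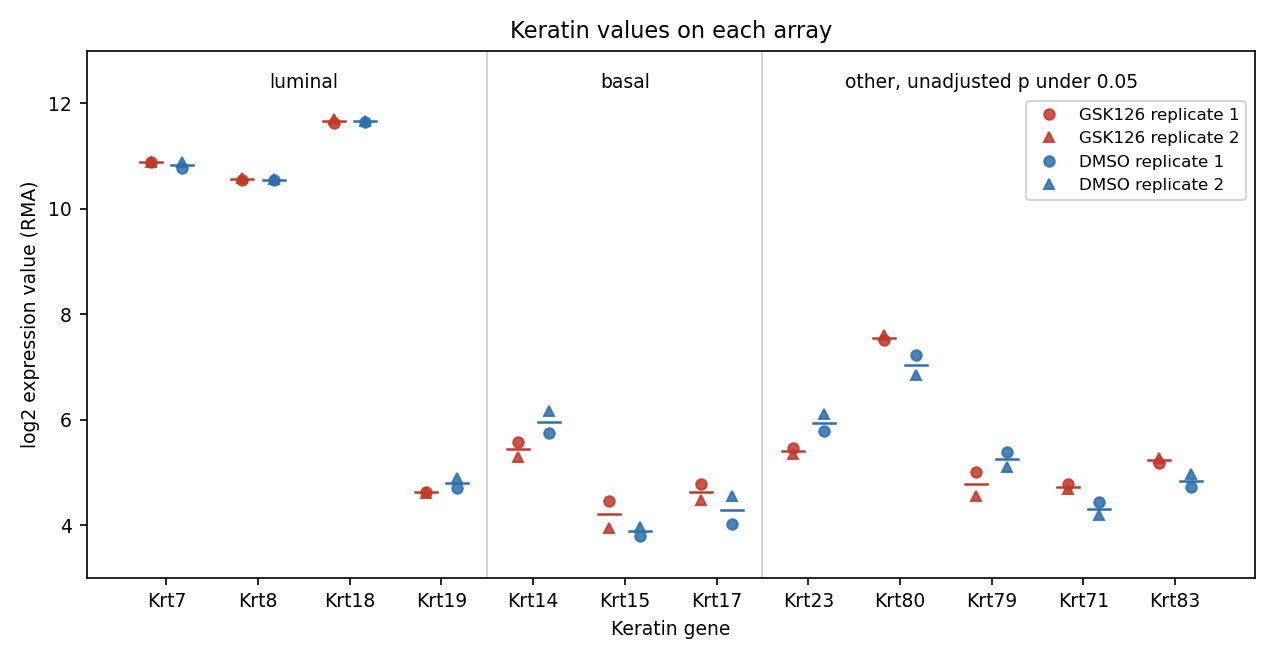
Log2 expression values (y axis) of the luminal and basal keratins and of the other 5 keratins at an unadjusted p under 0.05, with a point per array (red GSK126, blue DMSO, circles replicate 1, triangles replicate 2) and a line at each group mean. Krt7, Krt8 and Krt18 sit at the same level in both groups, while Krt14 and Krt23 lie lower and Krt80 higher on both GSK126 arrays.

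Averaged over genes, the luminal, basal and pooled hair and skin classes overlapped between treatments. The mean of the 4 luminal keratins was 9.42 and 9.45 with GSK126, against 9.42 and 9.50 in DMSO. The mean of the 3 basal keratins was 4.94 and 4.57 with GSK126, against 4.52 and 4.90 in DMSO. GSK126 replicate 1 and DMSO replicate 2 were thus the arrays with higher basal keratin values, and GSK126 replicate 2 and DMSO replicate 1 those with lower values. The luminal mean minus the basal mean was 4.49 and 4.88 with GSK126 and 4.90 and 4.60 in DMSO, with overlapping groups; only its variation between arrays is informative, since the offset joins different probe sets. The mean of the 40 hair and skin keratins was 4.69 and 4.61 with GSK126, against 4.63 and 4.56 in DMSO, also overlapping. Within smaller classes the means did separate: the 9 inner root sheath and companion layer keratins averaged 4.24 and 4.26 with GSK126, against 4.16 and 4.09 in DMSO, and Krt20 and Krt23 together 4.97 and 4.96 with GSK126, against 5.19 and 5.21 in DMSO. In that pair Krt23 alone was lower (-0.54), and Krt20 was dim and overlapped between groups (0.07). The class means were not tested.

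**Figure D3:**
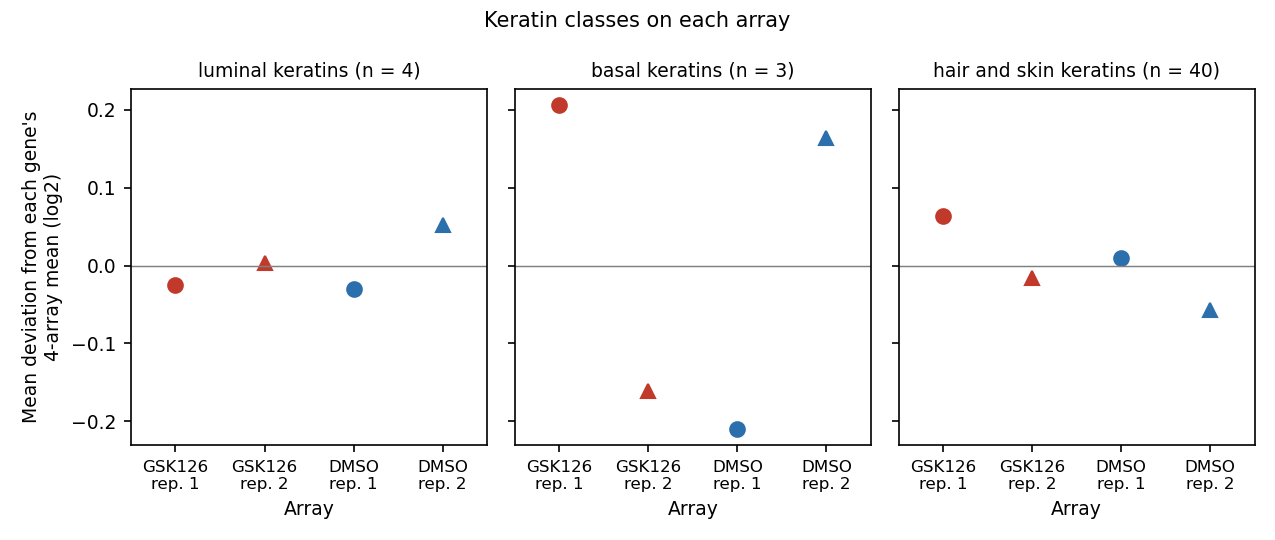
Mean deviation of the luminal, basal and hair and skin keratins from each gene's mean over 4 arrays (y axis, log2) on each array (x axis; red GSK126, blue DMSO). The treatments overlap in all 3 classes, and the spread within a treatment is widest in the basal class (0.21 and -0.16 with GSK126, -0.21 and 0.16 in DMSO).

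Among the other keratins of simple epithelia, Krt23 stood out by its size. This type I keratin was at 5.46 and 5.34 with GSK126, against 5.78 and 6.10 in DMSO, so the groups did not overlap. The difference was -0.54 (SE 0.15, 1.45-fold lower, unadjusted p = 0.0080, adjusted p = 0.278), and it ran from -0.70 to -0.38 when each array was left out in turn. Krt20, a keratin of gut epithelium and urothelium, was at 4.48 and 4.58 with GSK126 and at 4.61 and 4.32 in DMSO (difference 0.07, SE 0.17). Krt20 was dim, and Krt23 was not.

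Epidermal differentiation keratins held the largest positive difference of the family, that of Krt80. Krt80, a type II keratin found beside desmosomes in differentiating epithelia, was at 7.51 and 7.60 with GSK126 and at 7.22 and 6.85 in DMSO. Both GSK126 arrays were above both DMSO arrays, by 0.52 on average (SE 0.14, 1.44-fold, 95% interval 0.20 to 0.84). Its unadjusted p of 0.00567 ranked 506th of 22180 genes, and the adjusted p was 0.248. The difference was 0.33 without DMSO replicate 2 and 0.71 without DMSO replicate 1. Krt79, a keratin of the upper hair follicle canal, was at 5.01 and 4.56 with GSK126, against 5.39 and 5.11 in DMSO (difference -0.47, SE 0.19, adjusted p = 0.458), and the difference was -0.24 without GSK126 replicate 2.

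Keratins of the suprabasal epidermis did not follow a common direction. Krt10, the type I keratin of the spinous layer, was at 5.74 and 5.55 with GSK126, against 6.12 and 5.73 in DMSO, with overlap (difference -0.28, SE 0.16). Krt2, of the upper epidermis, was at 4.56 and 4.33 with GSK126 and at 4.18 and 4.13 in DMSO (0.29, SE 0.16, dim). Over the 9 epidermal genes the median difference was 0.12, 6 means were higher with GSK126 and 3 lower, and 0 passed the test. Without DMSO replicate 1 the median was -0.0022, and with centred arrays 5 means were higher and 4 lower.

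The stress, mucosal and corneal keratins had a median difference of -0.0026 over 7 genes, with 3 means higher and 4 lower and 0 past the threshold. Krt6a, a keratin that injured epidermis induces, was at 3.12 and 3.59 with GSK126 and at 4.31 and 3.47 in DMSO. A single DMSO array was high and the groups overlapped (difference -0.54, SE 0.30, adjusted p = 0.576). Leaving out DMSO replicate 1 brought the difference to -0.12. Krt76, of the oral palate, was at 4.16 and 3.88 with GSK126, against 3.72 and 3.72 in DMSO (0.30, SE 0.17). The mucosal pair Krt4 and Krt13 had differences of -0.20 (SE 0.18) and 0.14 (SE 0.14). Of the 7 genes, 5 were dim. Krt6a and Krt6b are near-identical genes, as are several keratins of the hair shaft, so their single-gene values are uncertain.

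The inner root sheath and companion layer keratins of the hair follicle had small differences, 8 of 9 with a positive sign. Of the 9 genes, 7 were dim, and among all 8872 dim genes 5171 had a higher mean with GSK126. The signs of Krt25, Krt26, Krt28, Krt72, Krt73 and Krt75 depended on the array left out. Krt71, a type II keratin of the inner root sheath, was at 4.78 and 4.68 with GSK126 and at 4.45 and 4.18 in DMSO, with no overlap. Its difference was 0.42 (SE 0.17, unadjusted p = 0.0372, adjusted p = 0.437), at a dim level. Krt74, of the same sheath, was at 4.14 and 4.24 with GSK126, against 4.10 and 3.79 in DMSO (0.24, SE 0.18). Krt27 (0.11) and Krt73 (0.10) overlapped between groups. The class median was 0.10 and became 0.04 with centred arrays, where 7 of 9 were positive.

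Hair shaft keratins, the largest class with 15 measured genes, had a median difference of 0.05, with 9 means higher and 6 lower. Krt83, a type II keratin of the hair cortex, was at 5.18 and 5.28 with GSK126 and at 4.73 and 4.96 in DMSO. The groups did not overlap, and the difference was 0.39 (SE 0.15, unadjusted p = 0.0371, adjusted p = 0.437). Krt34, a type I hair keratin, was at 5.21 and 5.46 with GSK126, against 5.11 and 4.93 in DMSO (0.32, SE 0.16). Krt35 and Krt84 had the lowest means relative to DMSO, at differences of -0.26 (SE 0.17) and -0.28 (SE 0.19). The class median was -0.00046 with centred arrays, where 7 were higher and 8 lower.

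The 4 keratins outside these classes gave no call either. Krt88 was at 5.44 and 5.48 with GSK126 and at 5.13 and 5.34 in DMSO (0.22, SE 0.14). Krt42 (-0.10), Krt90 (0.06) and Krt222 (-0.09) overlapped between groups, and each of the 3 changed sign when some array was left out.

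Across the family, type II keratins had positive differences more often than type I keratins in the values as deposited. Of 25 type II genes 20 had a higher mean with GSK126 (median 0.07), and of 28 type I genes 14 did (median 0.0028), against 10650 of 22180 genes overall (median -0.0077). With centred arrays the counts were 16 of 25 and 12 of 28, against 8100 of all genes. The difference between the types was not tested. Dim genes as a whole had a median difference of 0.04 over 8872 genes, against -0.03 over the 13308 brighter genes, and with centred arrays these medians were -0.01 and -0.09. Of the keratins, 26 were dim (median 0.09) and 27 were not (median 0.02), and the part of signal level in the keratin medians was not tested.

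In RefSeq gene order, the nearest measured keratins on each side of the 6 genes at an unadjusted p under 0.05 all had an unadjusted p above 0.05 themselves. Beside Krt80 (0.52) lay Krt7 (0.06), and beside Krt23 (-0.54) lay Krt20 (0.07) and Krt39 (0.02). Krt14 (-0.51) lay between Krt9 (0.12) and Krt16 (-0.0026), and Krt79 (-0.47) between Krt4 (-0.20) and Krt78 (0.0052). Krt83 (0.39) lay between Krt86 (-0.05) and Krt84 (-0.28). Krt71 (0.42) lay between Krt6a (-0.54) and Krt74 (0.24).

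**Figure D4:**
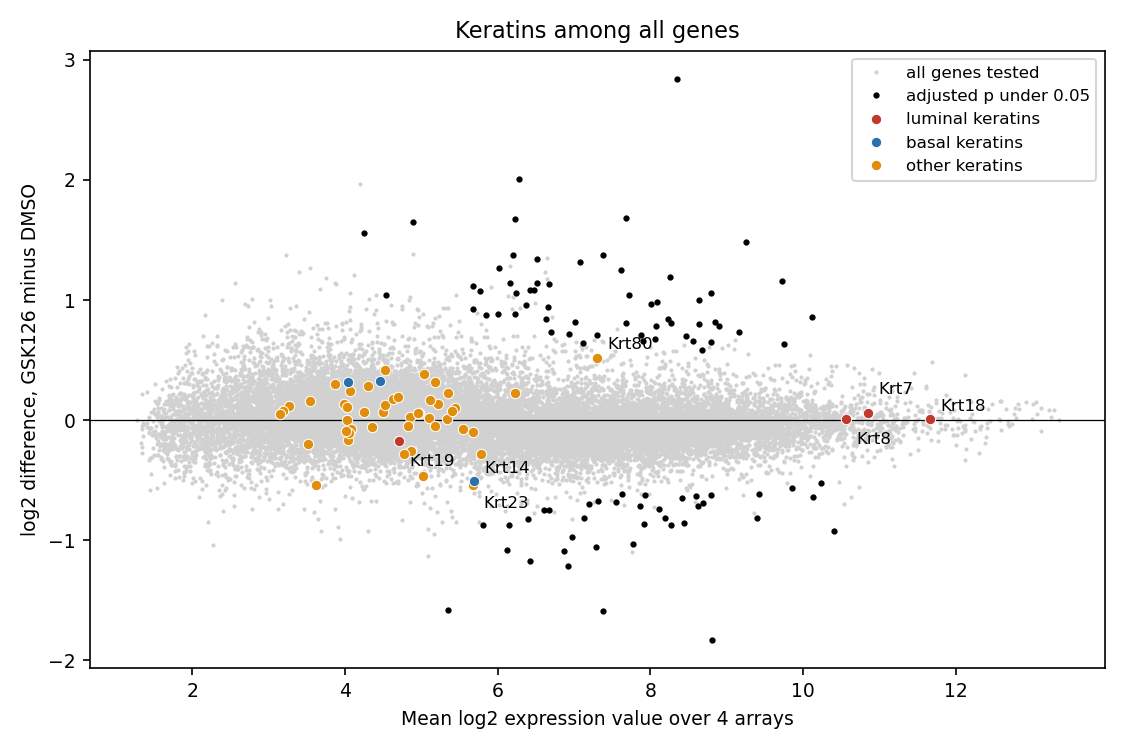
Mean log2 expression value over 4 arrays (x axis) against the difference GSK126 minus DMSO (y axis, log2) for all 22180 genes (grey), genes past the threshold (black) and keratins (colours). Krt7, Krt8 and Krt18 lie at high values near 0, and no keratin is among the black points.

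Genes that work with keratins were given by lists. Of 17 other intermediate filament genes 0 passed and 0 had an unadjusted p under 0.05, with a median of 0.04. The lowest p there was that of Lmna, the lamin A gene, at 8.59 and 8.54 with GSK126 and 8.69 and 8.73 in DMSO (-0.15, SE 0.08), followed by Bfsp1 (0.36), Nefh (-0.26) and Nefm (-0.30). Of 24 desmosome, hemidesmosome and plakin genes, which anchor keratin filaments at the membrane, 0 passed, 12 means were higher and 12 lower, and the median was 0.02. At an unadjusted p under 0.05 there were 1 higher and 2 lower, together 12.5%, near the 10.6% of all genes. Itga6, the integrin subunit of hemidesmosomes, was at 9.20 and 9.23 with GSK126, against 9.43 and 9.56 in DMSO (-0.28, SE 0.09, adjusted p = 0.319). Dst, a plakin that ties keratin to hemidesmosomes, was at 7.36 and 7.08 with GSK126, against 6.74 and 6.98 in DMSO (0.37, SE 0.13, adjusted p = 0.409). Dsg1c, a desmosomal cadherin, differed by -0.46 at a dim level, and Jup, the plakoglobin gene, by -0.18 (SE 0.08).

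Cornified envelope genes, which with keratins build the dead outer layer of skin, had a median of 0.06 over 25 measured genes. The test was passed by 0 of them in limma; with unadjusted p-values under 0.05, 4 had a higher and 0 a lower mean, 16% of the list, against 10.6% of all genes (4.64% higher), and 14 of the 25 were dim. Sbsn, a secreted protein of the upper epidermis, was at 6.09 and 5.92 with GSK126 and at 5.42 and 5.63 in DMSO (0.48, SE 0.14, adjusted p = 0.299). The small proline-rich genes Sprr2d (0.76, SE 0.17, adjusted p = 0.185) and Sprr1a (0.42, SE 0.15) and the filaggrin relative Hrnr (0.63, SE 0.17) were the other 3, and Sprr2d and Hrnr were dim. The 51 keratin-associated protein genes (Krtap), matrix components of hair, had a median of 0.12, with 35 means higher and 16 lower, 0 past the threshold and 41 dim. At an unadjusted p under 0.05, 6 of them were higher and 0 lower. This was 11.8%, against 10.6% of all genes in both directions and 4.64% in the higher direction alone. Dim genes as a whole counted 336 higher and 112 lower of 8872 at that limit. With centred arrays the median of the Krtap genes was 0.07.

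Transcription factors of keratinising and mammary epithelia had a median of -0.10 over 22 genes, and 0 passed in limma. At an unadjusted p under 0.05, 1 was higher and 7 lower, together 36.4% against 10.6% of all genes. Among genes at or above the dim level that share was 14.3%, and 2 of the 22 factors were dim. The median was -0.03 without DMSO replicate 1 and -0.17 without GSK126 replicate 1. Tfap2c, the AP-2 gamma gene of skin and mammary epithelium, was at 7.71 and 7.67 with GSK126, against 8.25 and 8.58 in DMSO (-0.73, SE 0.12, adjusted p = 0.0655). Dlx3, a homeobox factor of epidermis and hair follicle, was at 6.66 and 6.48 with GSK126, against 7.69 and 7.10 in DMSO (-0.82, SE 0.19, adjusted p = 0.182). Cebpb differed by -0.35 (SE 0.09) and Barx2 by -0.42 (SE 0.11). For these 4 factors, named for their small p, both GSK126 values lay below both DMSO values. Over all 22 factors the groups were separated in 45.5% (1 higher, 9 lower). Among the 13308 genes at or above the dim level that share was 45% (2214 higher, 3779 lower).

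The labels name mammary tumour lines with no cell layer, and epithelial markers outside the family were bright. Of 17 measured luminal markers 1, Pgr, was dim, and the epithelial adhesion genes Epcam and Cdh1 averaged 10.50 and 10.75 with GSK126, against 10.62 and 10.84 in DMSO. At an unadjusted p under 0.05, 1 luminal marker was higher and 5 lower (35.3%, against 10.6% of all genes and 14.3% of genes at or above the dim level). The tight junction gene Cldn4 was the higher one, at 11.65 with GSK126 and 11.26 in DMSO (0.39, adjusted p = 0.146), and Elf3 (-0.32), Elf5 (-0.38) and Xbp1 (-0.22) were among the lower ones. Of 15 basal markers 4 were dim, among them Trp63, the regulator of the basal layer (4.50 with GSK126, 4.38 in DMSO). The basal list held 1 gene past the threshold, the oxytocin receptor gene Oxtr (-0.75, adjusted p = 0.0479), and the luminal list 0. At an unadjusted p under 0.05, 3 basal markers were higher and 3 lower (40%, set against the same 10.6% and 14.3%). Among them were Tagln (0.51), Snai2 (0.56) and Id4 (-0.43). Some genes stood in more than 1 list, so the list counts are not independent. Elf3, Elf5, Ehf and Gata3 were both luminal markers and listed transcription factors, and Itga6 was both a basal marker and a hemidesmosome gene. The groups were separated in 64.7% of luminal and 53.3% of basal markers, against 40.1% of all genes and 45% of genes at or above the dim level. As means over the list, luminal markers read 8.72 and 8.73 with GSK126 and 8.82 and 8.82 in DMSO, and basal markers 6.08 and 6.02 with GSK126 and 6.05 and 6.03 in DMSO. Immune markers read 5.27 and 5.29 with GSK126 and 5.19 and 5.23 in DMSO, with the pan-leukocyte gene Ptprc dim and 1 gene past the threshold, the lysosomal gene Cd68 (1.00 higher, adjusted p = 0.010). The median difference of the immune list was 0.0046, with 6 means higher and 5 lower, and 7 of its 11 genes were dim. Cd14 was not dim, at 10.67 with GSK126 and 10.57 in DMSO, with overlapping groups. Fibroblast markers read 4.96 and 4.91 with GSK126 and 4.83 and 4.76 in DMSO, with 0 of 10 past the threshold and 3 higher at an unadjusted p under 0.05 (30%, against 4.64% higher among all genes). The part of these markers in the keratin values was not tested. Array medians over all probe sets were 4.79 and 4.78 with GSK126 and 4.74 and 4.73 in DMSO. Correlations between arrays lay between 0.981 and 0.988. The DMSO arrays correlated at 0.988 with each other and the GSK126 arrays at 0.981. GSK126 replicate 1 was closer to DMSO replicate 1 (0.987) and DMSO replicate 2 (0.986) than to GSK126 replicate 2.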

How the data were processed

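Expression was measured on 4 single-channel Affymetrix arrays. The deposited values are log2 RMA values that Expression Console derived from core exons, per the labels. Affymetrix Power Tools appears in the submitters' processing notes, with no version. Centring is unstated, and the build was not given in the sources used here. Of 41345 probe sets, 23521 carried 1 symbol, 1814 several and 16010 none. Each of the 22180 genes was taken from its highest-mean single-symbol probe set. Mean levels were ranked within a gene to choose its probe set and over genes to set the dim level. Otherwise values of different probe sets were not ranked against each other. All 53 keratin symbols matched RefSeq by Entrez identifier, with 0 updated.

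Differences were fitted with limma 3.58.1 in R 4.3.3 (intensity trend, two-sided, 2 residual and 5.57 prior degrees of freedom). Intervals are unadjusted 95% intervals of that fit. The fit was tested on simulated data. The number of arrays limits the precision.

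Members and lists were chosen with earlier results of these data known. Named were all luminal and basal keratins, any keratin past the threshold and the up to 4 smallest p in each other class or list of partner genes. Marker lists are represented by defining markers and by members chosen after their values were seen. Groups and replicates came from the sample titles. Lists and classes were described by counts and medians, with no test of a list. Alternatives were another prior variance (no trend, robust), a filter on dim genes, averaged or separately tested probe sets, centring, quantile normalization, a replicate block and leaving out each array.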

Additional observations from a re-analysis of the deposited data

How the results depend on the processing

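No keratin passed the threshold under any of the 12 alternatives in limma, and the smallest adjusted p was 0.145, when dim genes were left out. The count of keratins at an unadjusted p under 0.05 was 6, and 6 with the replicate number as a block, 3 with each probe set tested singly and 4 to 7 when each array was left out. Over all genes the 96 calls became 0 without the trend, 0 with each probe set tested singly, 149 without dim genes, 10 with the replicate block and 0 to 4 when an array was left out. The replicate number is known only from the sample titles. Deviations of same-numbered arrays correlated at -0.0255 over genes. Under the block 0 of the 29 named keratins changed its call, but none was called without it, so this cannot show whether the number matters.

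Centring the arrays on their medians over all probe sets shifted the difference of every gene by the same -0.054. The median over all genes became -0.062. Centring turned Krt8 to -0.041 and Krt18 to -0.045. It gave medians of -0.043 for luminal, -0.289 for other simple-epithelial, 0.068 for epidermal and -0.00046 for hair shaft keratins, -0.031 for desmosome genes and 0.0090 for cornified envelope genes. Quantile normalization turned Krt18 to -0.0059 and gave -0.278 for other simple-epithelial, 0.064 for epidermal and 0.0037 for hair shaft keratins. Averaging probe sets turned Krt18 to -0.076 and the luminal median to -0.032. Without dim genes the medians were -0.511 for basal, where Krt14 alone remained, -0.538 for other simple-epithelial, where Krt23 alone remained, and -0.139 for epidermal keratins, 0.056 for desmosome and 0.023 for cornified envelope genes.

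Leaving out each array gave ranges of -0.024 to 0.044 for the luminal median, 0.058 to 0.483 for basal, -0.107 to 0.079 for stress and mucosal, -0.0022 to 0.186 for epidermal, 0.060 to 0.201 for inner root sheath and -0.042 to 0.085 for hair shaft keratins. The ranges were -0.068 to 0.114 for other intermediate filament genes, -0.052 to 0.056 for desmosome genes, 0.051 to 0.117 for cornified envelope genes and -0.173 to -0.028 for transcription factors. The sign depended on the array left out for 25 of the 53 keratins, 7 of them among the 29 named: Krt8 (-0.014 to 0.040), Krt18 (-0.033 to 0.049), Krt20 (-0.073 to 0.209), Krt73 (-0.0051 to 0.201, and -8e-05 without GSK126 replicate 1), Krt42 (-0.373 to 0.175), Krt90 (-0.061 to 0.172) and Krt222 (-0.404 to 0.223). The causes were not tested. Signal near the dim level limits the size of a difference for the 26 dim keratins.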
